A study of Mus musculus with 6 samples.

Results

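The genes described here are the unfolded protein response and the secretory apparatus of activated CD4+ T cells, a list of 36 genes whose products sense misfolded protein in the endoplasmic reticulum (ER), fold it, destroy it or carry new chains into the ER. They were chosen by name, and every probe set whose platform symbol is one of them was taken. A total of 35 of the 36 had at least 1 probe set of their own, 39 in all, out of 19938 genes and 23410 named probe sets. Sec61g lay only on 4 probe sets shared with the symbols Gm11575 and Gm4184 and has no value here.

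The arrays compared 3 sorted populations of CD4+ CD44+ T cells. CD44 marks antigen-experienced T cells, Cxcr5 is the receptor that guides lymphocytes into B cell follicles, and Bcl6 is the repressor required by follicular helper T cells. The populations were Cxcr5+Bcl6+, Cxcr5+Bcl6- and Cxcr5-Bcl6-, with Bcl6 read through a red fluorescent reporter (RFP), and each had 2 arrays that the series calls biological replicates. All 3 came from the lymph nodes draining the site of immunisation in male Bcl6-RFP reporter mice of 8 to 10 weeks, given keyhole limpet haemocyanin (KLH) in complete Freund's adjuvant (CFA). The groups therefore share the reporter, the sex, the age and the immunisation, and there was no unimmunised group. Whether mice were pooled, whether a pair of arrays was prepared together and whether the sorted cells were restimulated could not be read from the labels. If the arrays of a group were not separate animals, the p-values cover only technical spread.

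The unfolded protein response has 3 sensors in the ER membrane. IRE1, encoded by Ern1, cuts the Xbp1 messenger so that it encodes an active transcription factor. ATF6 is released by cleavage and enters the nucleus, and PERK slows translation while favouring that of ATF4. Their targets include the ER chaperones, the disulfide isomerases and the machinery of ER-associated degradation, and the pathway is best known in plasma cells, which secrete antibody. T cells also pass their cytokines and surface receptors through the ER. The arrays read total messenger, so the Xbp1 value does not separate the spliced from the unspliced form.

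Many of these genes carry the ER stress response element, a pair of short sequences set at a fixed distance, CCAAT and CCACG with 9 bases between them. RefSeq promoter windows on GRCm38.p6, each holding 250 bases before and 50 after the start site, were found for 30 of the 36 members (none for Atf6, Hyou1, Manf, Sec61a1, Ssr2 and Spcs3). The element, read on either strand, stood in 8 of the 30, against 39 of 32851 promoters in the whole table (0.119%). The 8 were Hspa5, Hsp90b1, Calr, Canx, Creld2, Pdia6, Dnajc3 and Syvn1, and Hsp90b1 held it at 2 positions. Its ends alone are common. CCAAT stood in 22 of the 30 members' windows and in 37.4% of all windows, and CCACG in 23 of the 30 and in 32.8%; both counts include the ends of full elements. The sequence TGACGTGG, also bound by unfolded protein response factors, stood in 0 of 30 (0.676% of all), and TGATGNAAN, the composite element read by ATF4 with its partners, in Herpud1 and Trib3 (3.95% of all). A match is a description of the letters and not evidence of binding.

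The 250 bases before the start site are shown for 6 members, 5 whose level fell in Cxcr5+Bcl6+ cells and Dnajc3, whose change did not pass. Capitals mark the 19 bases of the element; sequences run 5′ to 3′ on the strand of the gene. The windows are chr2:34771840-34772089 on the plus strand for Hspa5, chr10:86705445-86705694 on the minus strand for Hsp90b1, chr8:84846932-84847181 on the minus strand for Calr, chr15:88819396-88819645 on the plus strand for Creld2, chr12:17266339-17266588 on the plus strand for Pdia6 and chr14:118937682-118937931 on the plus strand for Dnajc3.
Hspa5: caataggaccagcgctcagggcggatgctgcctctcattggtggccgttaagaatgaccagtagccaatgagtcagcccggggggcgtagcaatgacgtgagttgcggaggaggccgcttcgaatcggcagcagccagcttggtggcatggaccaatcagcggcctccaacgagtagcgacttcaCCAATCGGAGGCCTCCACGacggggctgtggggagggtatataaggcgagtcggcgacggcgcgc
Hsp90b1: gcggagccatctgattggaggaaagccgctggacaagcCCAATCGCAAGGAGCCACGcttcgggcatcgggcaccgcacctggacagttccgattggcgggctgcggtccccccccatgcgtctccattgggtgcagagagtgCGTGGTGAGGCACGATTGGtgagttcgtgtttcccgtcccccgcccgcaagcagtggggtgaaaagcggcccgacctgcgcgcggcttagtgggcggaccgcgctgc
Calr: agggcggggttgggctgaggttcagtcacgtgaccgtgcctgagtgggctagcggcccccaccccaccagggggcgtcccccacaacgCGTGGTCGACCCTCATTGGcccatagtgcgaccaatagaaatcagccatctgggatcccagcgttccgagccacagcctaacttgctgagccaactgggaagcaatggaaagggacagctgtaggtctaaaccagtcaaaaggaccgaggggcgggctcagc
Creld2: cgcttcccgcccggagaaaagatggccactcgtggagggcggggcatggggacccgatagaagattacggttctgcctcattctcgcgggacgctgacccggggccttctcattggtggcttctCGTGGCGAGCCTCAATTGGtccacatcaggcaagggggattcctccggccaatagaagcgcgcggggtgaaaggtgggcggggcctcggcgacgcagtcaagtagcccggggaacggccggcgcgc
Pdia6: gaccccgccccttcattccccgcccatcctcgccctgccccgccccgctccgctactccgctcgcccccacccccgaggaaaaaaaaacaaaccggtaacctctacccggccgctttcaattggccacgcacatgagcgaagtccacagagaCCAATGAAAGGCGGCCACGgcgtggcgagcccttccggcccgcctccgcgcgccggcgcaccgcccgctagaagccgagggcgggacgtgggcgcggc
Dnajc3: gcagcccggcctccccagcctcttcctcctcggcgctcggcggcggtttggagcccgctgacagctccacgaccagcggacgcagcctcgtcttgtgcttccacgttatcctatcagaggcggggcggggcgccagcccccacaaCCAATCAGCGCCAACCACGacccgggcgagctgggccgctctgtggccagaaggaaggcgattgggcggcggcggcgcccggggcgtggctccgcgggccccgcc

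In Hspa5 the element lies 65 to 47 bases upstream of the start site, in Pdia6 98 to 80, and in Dnajc3 105 to 87. In Calr it lies 162 to 144 bases upstream and in Creld2 126 to 108, both on the opposite strand, so that it reads from CGTGG to ATTGG. Hsp90b1 holds 1 copy on each strand, at 212 to 194 and at 107 to 89 bases upstream.

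Cxcr5+Bcl6+ cells held less messenger for most of the members than either other population, and the ER chaperones fell most. Against Cxcr5-Bcl6- cells, 21 of the 35 measured members were lower and 3 were higher (limma, Benjamini-Hochberg adjusted p under 0.05), where 17.7% of all genes were lower and 16.4% were higher. Among the 9592 genes whose mean level lay within the range of the members, 31.8% were lower and 21.9% higher. The share of members that were lower (60%) thus lay above that of genes in this range, and the share that were higher (8.57%) below it. The range is wide, from 8.06 to 13.02 with the members' median at 11.1. Genes matched to the level of each member were not compared. The members' median log2 change was -0.43, beside 0.04 over all genes. Against Cxcr5+Bcl6- cells, 18 members were lower and 1 was higher where 13.2% of all genes were lower and 11.8% higher, and 24.8% and 11.5% of genes in the members' range. The median change was -0.28 beside 0.06. Cxcr5+Bcl6- and Cxcr5-Bcl6- cells differed little, with 2 members lower and 1 higher, where 5.49% of all genes were lower and 5.50% higher, and 8.49% and 9.91% of genes in the members' range. The median there was -0.11 beside -0.03; 27 of the 35 changes were negative, and 9 were lower at an unadjusted p under 0.05.

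Averaged over the 35 members, the log2 level ran from 10.87 to 10.91 in Cxcr5+Bcl6+ cells. It ran from 11.21 to 11.25 in Cxcr5+Bcl6- cells and from 11.28 to 11.38 in Cxcr5-Bcl6- cells. The Cxcr5+Bcl6+ arrays lay below the others, while the ranges of the Bcl6- groups lay close without overlap. The medians of whole arrays were 7.83 and 7.83 in Cxcr5+Bcl6- and 7.84 and 7.88 in Cxcr5-Bcl6- cells. Whether the gap between the Bcl6- groups outlasts centring was not tested. The 3 comparisons use the same 6 arrays and are not independent of each other. In a bulk sample, fewer cells of a type and less RNA per cell cannot be told apart. Leaving out replicate 1 of Cxcr5+Bcl6- took the members called between the Cxcr5+ groups from 19 to 12, and leaving out any 1 of replicate 1 of Cxcr5-Bcl6-, replicate 1 of Cxcr5+Bcl6- or replicate 2 of Cxcr5+Bcl6- took the 3 calls between the Bcl6- groups to 1. Over all named probe sets, 3144 were higher and 3041 lower between the Cxcr5+ groups, and 2074 higher and 3859 lower once each array was centred on its median. That centring gave 1 member higher and 22 lower.

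**Figure D1:**
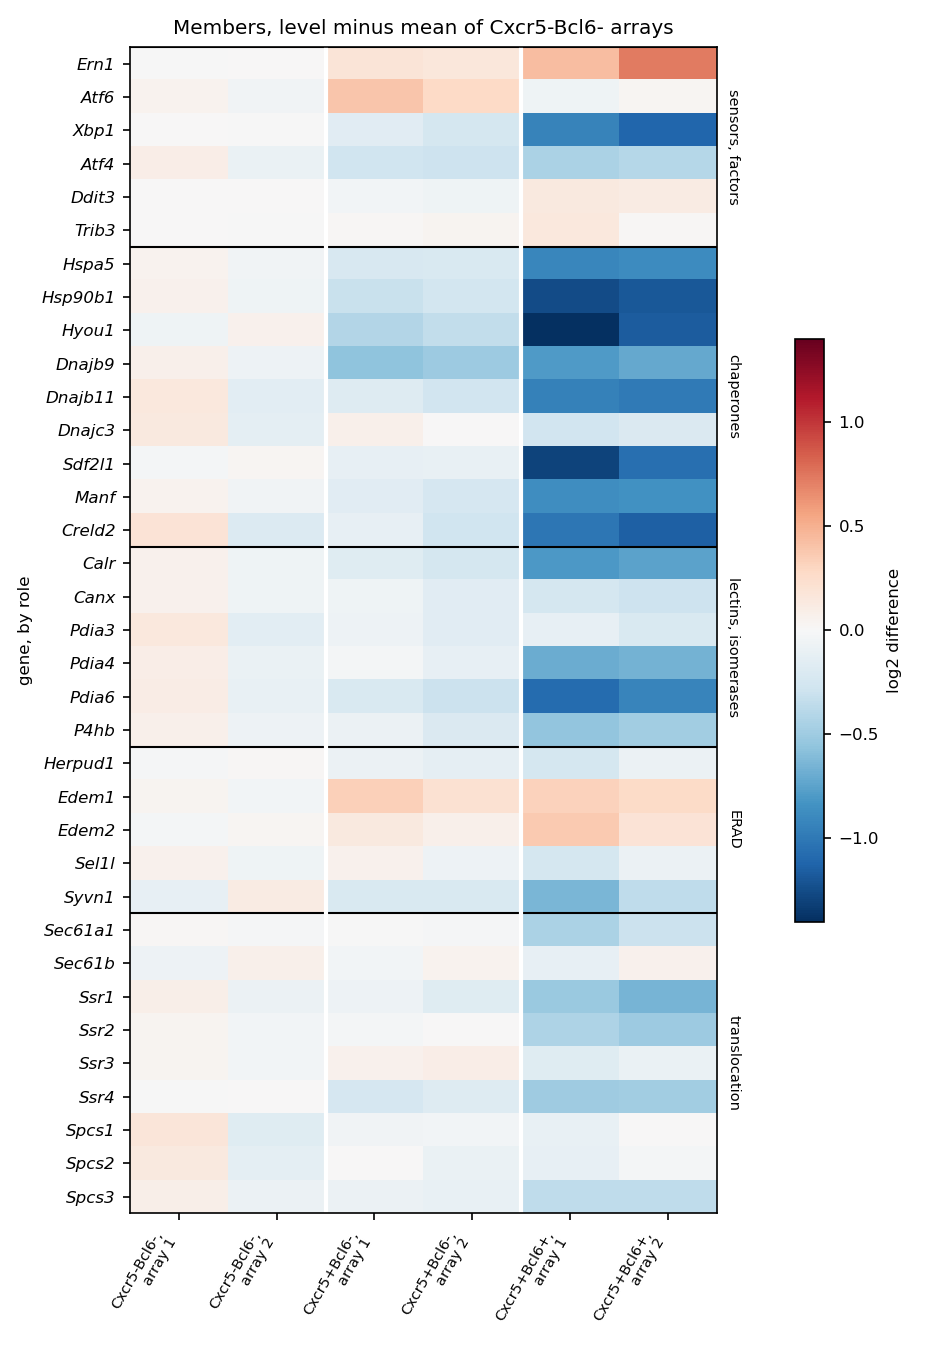
Log2 level of each measured member in each of the 6 arrays, minus the mean of that gene's Cxcr5-Bcl6- arrays, with genes as rows grouped by role and arrays as columns. The Cxcr5+Bcl6+ columns are blue (lower) for most chaperones and isomerases, with the deepest blue at Hyou1, and red (higher) at Ern1.

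Among the sensors and factors, the messenger of the Ern1 sensor and that of its substrate Xbp1 moved in opposite directions. Xbp1 (probe set 10374035) stood at 11.65 and 11.47 in Cxcr5+Bcl6+ cells, at 12.42 and 12.33 in Cxcr5+Bcl6- cells and at 12.59 and 12.57 in Cxcr5-Bcl6- cells (log2 level of each array). The Cxcr5+Bcl6+ arrays lay below all the others. The level was 2.02-fold lower than in Cxcr5-Bcl6- cells (log2 change -1.02, SE 0.0951, adjusted p = 7.16e-06) and 1.76-fold lower than in Cxcr5+Bcl6- cells (-0.81, adjusted p = 8.2e-05). The -0.20 between the Bcl6- groups did not pass (adjusted p = 0.253, 95% interval -0.41 to 0.01). Ern1 (probe set 10392183), which encodes the kinase and endoribonuclease IRE1, stood at 9.76 and 10.05, at 9.50 and 9.48, and at 9.32 and 9.33 in the same order of groups. Against Cxcr5-Bcl6- cells the Cxcr5+Bcl6+ level was 1.49-fold higher (0.58, SE 0.104, adjusted p = 0.00105) and against Cxcr5+Bcl6- cells 1.33-fold higher (0.42, adjusted p = 0.0124). Its Cxcr5+Bcl6+ arrays were both the highest and the most apart, and the second call was lost without replicate 2 of Cxcr5+Bcl6+ (adjusted p = 0.0798) or without either Cxcr5+Bcl6- array (0.0553 and 0.0659), and with all rows of the table tested (0.0529).

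Atf6 (probe set 10359982), the sensor that is itself a transcription factor precursor, was highest in Cxcr5+Bcl6- cells. Its levels were 10.76 and 10.65 there, 10.31 and 10.40 in Cxcr5+Bcl6+ cells and 10.42 and 10.32 in Cxcr5-Bcl6- cells, and the last 2 groups overlapped. The rise over Cxcr5-Bcl6- cells was 0.33 (adjusted p = 0.0395), and Cxcr5+Bcl6+ cells held less than Cxcr5+Bcl6- cells (-0.35, adjusted p = 0.0164). The first call was lost without any 1 of the 4 arrays compared (adjusted p = 0.0516 to 0.37) or with all rows tested (0.118), and the second without replicate 1 of Cxcr5+Bcl6+ (0.0876) or either Cxcr5+Bcl6- array (0.181 and 0.0506), or with all rows tested (0.0506).

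On the PERK side the factors changed less. Atf4 (probe set 10425364), which encodes the activator of amino acid and redox genes, stood at 10.05 and 10.10 in Cxcr5+Bcl6+ cells, 10.22 and 10.20 in Cxcr5+Bcl6- cells and 10.59 and 10.40 in Cxcr5-Bcl6- cells. It was 1.34-fold lower in Cxcr5+Bcl6+ cells than in Cxcr5-Bcl6- cells (-0.43, SE 0.0948, adjusted p = 0.00415), and the -0.13 between the Cxcr5+ groups did not pass (adjusted p = 0.333). Ddit3, which encodes the pro-apoptotic factor CHOP, gave 9.34 and 9.32 in Cxcr5+Bcl6+ cells, 9.16 and 9.14 in Cxcr5+Bcl6- cells and 9.20 in both Cxcr5-Bcl6- arrays. Its change against Cxcr5-Bcl6- cells was 0.13 (adjusted p = 0.277, interval -0.06 to 0.32) and against Cxcr5+Bcl6- cells 0.18 (adjusted p = 0.145). Trib3, a pseudokinase gene switched on by ATF4 and CHOP, lay between 8.01 and 8.17 on all 6 arrays, with changes of 0.03 to 0.09 that did not pass. Both genes are known to respond to strong PERK signalling, and neither was called in any comparison with the values as deposited. After quantile normalisation Ddit3 was 0.25 higher between the Cxcr5+ groups and passed (adjusted p = 0.0426). The 95% interval of Trib3 from Cxcr5-Bcl6- to Cxcr5+Bcl6+ cells ran from -0.11 to 0.28.

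**Figure D2:**
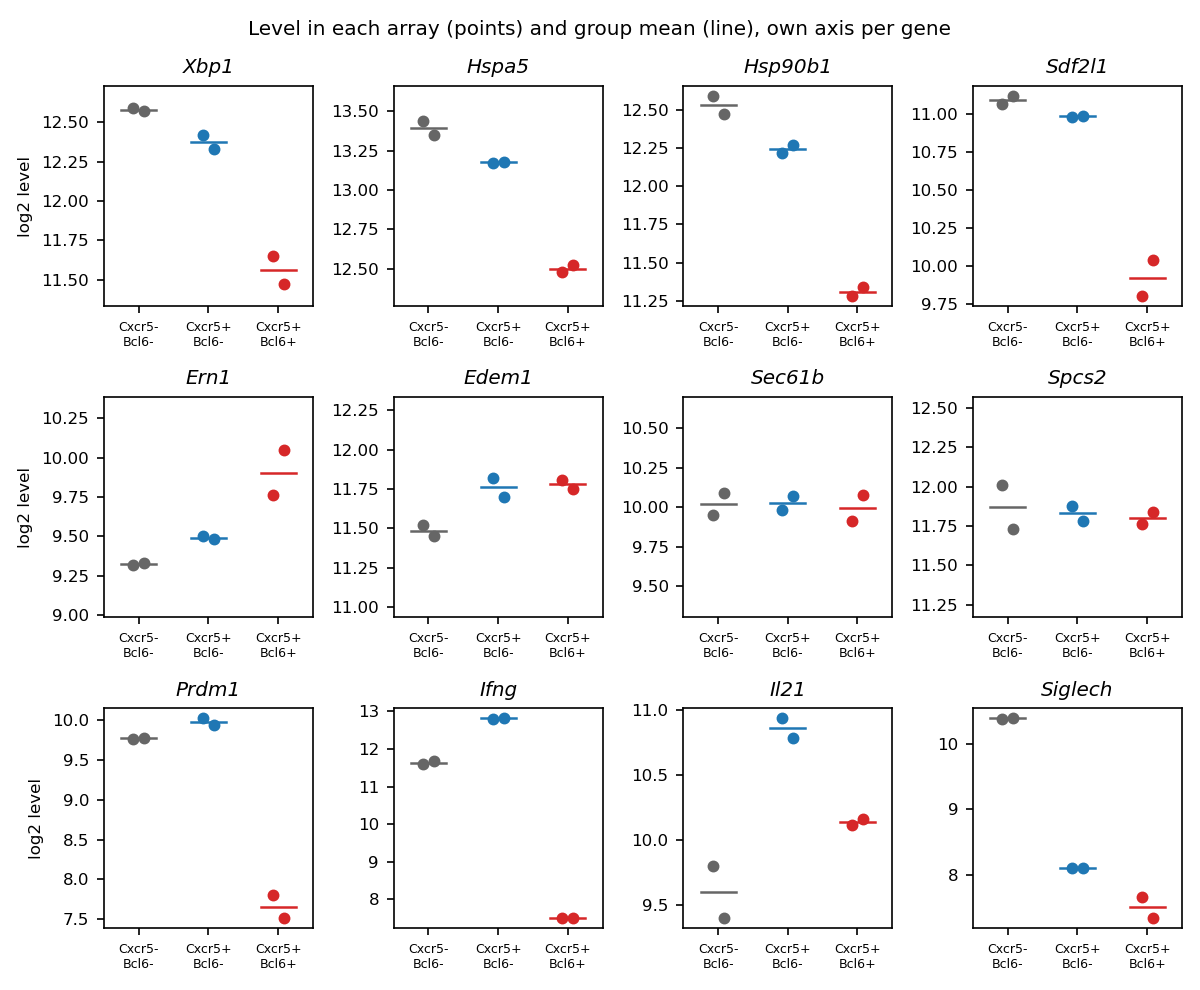
Log2 level in each array (points) and group mean (lines) for 8 members and for Prdm1, Ifng, Il21 and Siglech, each panel on its own axis. In Xbp1, Hspa5, Hsp90b1 and Sdf2l1 the Cxcr5+Bcl6+ points lie below all others, in Ern1 above all others, and in Sec61b and Spcs2 the groups overlap.

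Of the 9 ER chaperones and co-chaperones, 8 were lower in Cxcr5+Bcl6+ cells than in Cxcr5-Bcl6- cells (median change -0.96), 7 were lower than in Cxcr5+Bcl6- cells (-0.74), and 2 were lower in Cxcr5+Bcl6- cells than in Cxcr5-Bcl6- cells (-0.22). Of all genes 17.7%, 13.2% and 5.49% were lower in these comparisons, and of genes in the members' level range 31.8%, 24.8% and 8.49%. Hspa5 (probe set 10471586) encodes BiP, the ER chaperone that binds unfolded chains and holds the sensors silent. Its levels were 12.48 and 12.52 in Cxcr5+Bcl6+ cells, 13.17 and 13.18 in Cxcr5+Bcl6- cells and 13.44 and 13.35 in Cxcr5-Bcl6- cells. The groups did not overlap, and the level in Cxcr5+Bcl6+ cells was 1.86-fold lower than in Cxcr5-Bcl6- cells (-0.89, SE 0.0867, adjusted p = 9.09e-06) and 1.60-fold lower than in Cxcr5+Bcl6- cells (-0.68, adjusted p = 0.000163). Hsp90b1 (probe set 10371482) encodes GRP94, the ER member of the HSP90 family, with integrins and Toll-like receptors among its clients. It stood at 11.28 and 11.34, at 12.22 and 12.27, and at 12.59 and 12.47 in the same order. It was 2.32-fold lower than in Cxcr5-Bcl6- cells (-1.22, SE 0.0900, adjusted p = 1.21e-06) and 1.91-fold lower than in Cxcr5+Bcl6- cells (-0.93, adjusted p = 1.89e-05).

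Hyou1 (probe set 10584712), which encodes the nucleotide exchange factor that resets BiP, had the most negative change of the 35 members. It stood at 9.82 and 10.08 in Cxcr5+Bcl6+ cells, 10.83 and 10.90 in Cxcr5+Bcl6- cells and 11.19 and 11.30 in Cxcr5-Bcl6- cells, 3 separate ranges. The level was 2.46-fold lower than in Cxcr5-Bcl6- cells (-1.30, SE 0.104, adjusted p = 2.19e-06) and 1.89-fold lower than in Cxcr5+Bcl6- cells (-0.92, adjusted p = 6.46e-05). Its -0.38 between the Bcl6- groups passed with all 6 arrays (adjusted p = 0.0372) and not without any 1 of the 4 compared (0.0516 to 0.236), nor after quantile normalisation (0.0513) or centring (0.0527).

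Dnajb9 (probe set 10400137), which encodes ERdj4, a BiP partner known to quiet IRE1, differed from the other chaperones in where its step lay. It stood at 9.94 and 10.02 in Cxcr5+Bcl6+ cells, 10.17 and 10.23 in Cxcr5+Bcl6- cells and 10.81 and 10.66 in Cxcr5-Bcl6- cells. Most of its difference lay between the Bcl6- groups (-0.54, adjusted p = 0.00307), and the -0.22 between the Cxcr5+ groups did not pass (adjusted p = 0.101) but became -0.30 and passed on centring the arrays (0.0427). It was 1.69-fold lower in Cxcr5+Bcl6+ cells than in Cxcr5-Bcl6- cells (-0.76, adjusted p = 5.61e-05). Its call between the Bcl6- groups was the only one of the 3 there that held under every alternative run.

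Sdf2l1 (probe set 10438098), which encodes a partner of BiP and ERdj3, stood at 9.80 and 10.04 in Cxcr5+Bcl6+ cells against 10.98 and 10.99 in Cxcr5+Bcl6- and 11.07 and 11.12 in Cxcr5-Bcl6- cells. Here the step lay almost wholly between the Cxcr5+ groups (2.09-fold lower, -1.06, adjusted p = 1.48e-05), with -0.11 between the Bcl6- groups (adjusted p = 0.66). Dnajb11, which encodes ERdj3, stood at 10.00 and 9.96 in Cxcr5+Bcl6+ cells, 10.77 and 10.68 in Cxcr5+Bcl6- cells and 11.09 and 10.80 in Cxcr5-Bcl6- cells. It was 1.95-fold lower than in Cxcr5-Bcl6- cells (-0.96, adjusted p = 2.63e-05) and 1.67-fold lower than in Cxcr5+Bcl6- cells (-0.74, adjusted p = 0.000376). Creld2, an ER-resident protein induced by ER stress, gave 10.51 and 10.38, 11.41 and 11.24, and 11.71 and 11.33 in the same order, the Bcl6- groups overlapping. Its fall was 2.11-fold against Cxcr5-Bcl6- cells (-1.08, adjusted p = 3.66e-05) and 1.85-fold against Cxcr5+Bcl6- cells (-0.89, adjusted p = 0.000334). Manf, an ER protein that can also be secreted, stood at 9.17 and 9.19 against 9.88 and 9.80 and against 10.08 and 9.99, and fell by 0.85 and 0.66 on the log2 scale (adjusted p = 1.65e-05 and 0.000257).

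Dnajc3, which encodes the co-chaperone known as P58IPK, was the exception among the 9. Its levels were 10.75 and 10.82 in Cxcr5+Bcl6+ cells, 11.09 and 11.03 in Cxcr5+Bcl6- cells and 11.16 and 10.88 in Cxcr5-Bcl6- cells. The changes of -0.24 and -0.28 did not pass (adjusted p = 0.105 and 0.0749), and its 2 probe sets hold identical values and count once. The first passed without replicate 2 of Cxcr5-Bcl6- (-0.38, adjusted p = 0.016). The second passed without either Cxcr5-Bcl6- array, which leaves only the 4 arrays compared to set the spread (0.0317), and on centring the arrays (0.035).

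The lectin chaperones and disulfide isomerases gave 5 of 6 lower against Cxcr5-Bcl6- cells (median -0.60) and 4 of 6 lower against Cxcr5+Bcl6- cells (-0.47). Beside them stand 17.7% and 13.2% of all genes, and 31.8% and 24.8% of genes in the members' level range. Between the Bcl6- groups 0 of 6 were called by limma (2 at an unadjusted p under 0.05). Calr (probe set 10580219), the soluble lectin calreticulin, stood at 12.05 and 12.11 in Cxcr5+Bcl6+ cells, 12.69 and 12.61 in Cxcr5+Bcl6- cells and 12.92 and 12.79 in Cxcr5-Bcl6- cells. It was 1.71-fold lower than in Cxcr5-Bcl6- cells (-0.78, SE 0.0915, adjusted p = 4.23e-05) and 1.49-fold lower than in Cxcr5+Bcl6- cells (-0.57, adjusted p = 0.000804). Its membrane-bound counterpart calnexin (Canx) gave 12.88 and 12.84, 13.07 and 12.97, and 13.19 and 13.07. The -0.27 against Cxcr5-Bcl6- cells passed narrowly (adjusted p = 0.0359). It did not pass without replicate 1 or 2 of Cxcr5+Bcl6+ or replicate 1 of Cxcr5-Bcl6-, nor after quantile normalisation (0.0635). Nor did it pass when only the 4 arrays compared set the spread (0.0709), which is also the fit without either Cxcr5+Bcl6- array.

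The isomerases differed among themselves. Pdia6 (probe set 10394735), which encodes an isomerase that acts on BiP clients, stood at 10.25 and 10.41 in Cxcr5+Bcl6+ cells, 11.12 and 11.03 in Cxcr5+Bcl6- cells and 11.43 and 11.23 in Cxcr5-Bcl6- cells. It was 2.00-fold lower than in Cxcr5-Bcl6- cells (-1.0, SE 0.102, adjusted p = 1.34e-05) and 1.68-fold lower than in Cxcr5+Bcl6- cells (-0.75, adjusted p = 0.000265). Pdia4, which encodes ERp72, gave 11.17 and 11.20, 11.83 and 11.74, and 11.95 and 11.77, a 1.60-fold lower level than in Cxcr5-Bcl6- cells (-0.68, adjusted p = 0.000158) and 1.52-fold lower than in Cxcr5+Bcl6- cells (-0.60, 0.000715). A second, dimmer Pdia4 probe set (10544538) changed by -0.19 against Cxcr5-Bcl6- cells and by -0.07 against Cxcr5+Bcl6- cells and was not called (adjusted p = 0.259 and 0.7). P4hb, the classical protein disulfide isomerase, stood at 11.45 and 11.52, 11.92 and 11.80, and 12.08 and 11.93. It fell by 0.52 on the log2 scale (adjusted p = 0.00105) and, against Cxcr5+Bcl6- cells, by 0.37 (adjusted p = 0.0127). The latter call was lost without replicate 1 of Cxcr5+Bcl6+ (0.0698) or replicate 1 of Cxcr5+Bcl6- (0.149). Pdia3, which encodes ERp57, the isomerase that works with the 2 lectins and in loading of class I molecules, overlapped between groups, at 12.32 and 12.23, 12.37 and 12.28, and 12.59 and 12.29. Its -0.16 from Cxcr5-Bcl6- cells missed the threshold (adjusted p = 0.292, interval -0.40 to 0.08), and it became -0.31 and passed without replicate 2 of Cxcr5-Bcl6- (adjusted p = 0.0451).

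Of the 5 members of ER-associated degradation, 1 was lower (20%, beside 17.7% of all genes and 31.8% of genes in the members' level range) and 2 were higher against Cxcr5-Bcl6- cells, and 0 of 5 were called by limma between the Cxcr5+ groups (1 at an unadjusted p under 0.05, Syvn1). Edem1 (probe set 10540493), which encodes a mannosidase-like protein that marks glycoproteins for disposal, stood at 11.81 and 11.75 in Cxcr5+Bcl6+ cells, 11.82 and 11.70 in Cxcr5+Bcl6- cells and 11.52 and 11.45 in Cxcr5-Bcl6- cells. The Cxcr5+ groups overlapped and both lay above the Cxcr5-Bcl6- arrays. The rise of 0.29 in Cxcr5+Bcl6+ over Cxcr5-Bcl6- cells passed (adjusted p = 0.0251) and the 0.28 between the Bcl6- groups did not (adjusted p = 0.0773), though that one passed with an intensity trend (0.02), after quantile normalisation (0.0377) and with dim probe sets left out (0.0367). Its relative Edem2 stood at 10.53 and 10.35, 10.30 and 10.23, and 10.13 and 10.19, also 0.29 higher in Cxcr5+Bcl6+ cells than in Cxcr5-Bcl6- cells (adjusted p = 0.0345). Both rises were lost on centring the arrays (0.0638 and 0.071). The Edem1 rise was lost without replicate 1 of Cxcr5+Bcl6+ or replicate 2 of Cxcr5-Bcl6-. The Edem2 rise was lost without replicate 1 of Cxcr5+Bcl6+ or replicate 1 of Cxcr5-Bcl6-. Both were also lost when only the 4 arrays compared set the spread (0.0514 and 0.0639), which is also the fit without either Cxcr5+Bcl6- array.

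Syvn1 encodes HRD1, the ubiquitin ligase of the degradation channel, and was the only 1 of the 5 to fall. It stood at 10.34 and 10.62 in Cxcr5+Bcl6+ cells, 10.76 in both Cxcr5+Bcl6- arrays and 10.86 and 11.09 in Cxcr5-Bcl6- cells. The change against Cxcr5-Bcl6- cells was -0.49 (SE 0.114, adjusted p = 0.0053), and -0.35 without replicate 1 of Cxcr5+Bcl6+ (adjusted p = 0.0595). The -0.28 between the Cxcr5+ groups did not pass (adjusted p = 0.0981), but did without replicate 2 of Cxcr5+Bcl6+ (-0.42, adjusted p = 0.0436) and on centring the arrays (-0.35, 0.0371). Its adaptor Sel1l changed by -0.17 and -0.15 (adjusted p = 0.225 and 0.282), and the membrane scaffold Herpud1 by -0.16 and -0.06 (0.209 and 0.69), neither of them called.

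At the gate of the ER, 5 of 9 measured members were lower against both Cxcr5-Bcl6- cells (median -0.36) and Cxcr5+Bcl6- cells (-0.27). The shares of all genes lower there were 17.7% and 13.2%, and of genes in the members' level range 31.8% and 24.8%. Between the Bcl6- groups 0 of 9 were called by limma (1 at an unadjusted p under 0.05). Sec61a1 (probe set 10546113) encodes the pore of the translocon. Its levels were 12.54 and 12.68 in Cxcr5+Bcl6+ cells, 12.98 and 12.97 in Cxcr5+Bcl6- cells and 13.00 and 12.97 in Cxcr5-Bcl6- cells. The Bcl6- groups overlapped, and the Cxcr5+Bcl6+ level was 1.30-fold lower than in Cxcr5-Bcl6- cells (-0.37, SE 0.0898, adjusted p = 0.00645) and 1.29-fold lower than in Cxcr5+Bcl6- cells (-0.37, adjusted p = 0.0109). The second call was lost without replicate 1 of Cxcr5+Bcl6+ (0.0652) or either Cxcr5+Bcl6- array (0.0924 and 0.0734). The small subunit gene Sec61b overlapped in all groups: its arrays lay between 9.91 and 10.09 with changes of -0.03 to 0.01, and its 3 probe sets were not called in any comparison.

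The TRAP complex, which sits beside the translocon and helps some signal sequences to enter, is encoded by Ssr1 to Ssr4. Ssr1 stood at 11.89 and 11.76 in Cxcr5+Bcl6+ cells, 12.34 and 12.24 in Cxcr5+Bcl6- cells and 12.50 and 12.33 in Cxcr5-Bcl6- cells. It was 1.5-fold lower than in Cxcr5-Bcl6- cells (-0.59, adjusted p = 0.000589) and 1.37-fold lower than in Cxcr5+Bcl6- cells (-0.46, adjusted p = 0.0051, and 0.0569 without replicate 1 of Cxcr5+Bcl6-). Ssr2 gave 12.05 and 11.98, 12.46 and 12.49, and 12.52 and 12.45, lower by 0.47 and 0.46 with -0.01 between the Bcl6- groups (changes -0.47 and -0.46, adjusted p = 0.00135 and 0.00265). Ssr4 gave 11.18 and 11.19, 11.45 and 11.50, and 11.67 and 11.69. Its -0.49 passed (adjusted p = 0.000776), as did the -0.29 against Cxcr5+Bcl6- cells (0.0285), the latter not without either Cxcr5+Bcl6+ array (0.0785 and 0.0679) or either Cxcr5+Bcl6- array (0.14 and 0.229), nor after quantile normalisation (0.0662). Ssr3 changed by -0.13 and -0.21 and was not called (adjusted p = 0.275 and 0.1), although the -0.21 became -0.29 and passed on centring (0.0393).

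The signal peptidase, which cuts the signal sequence from the entering chain, has accessory subunits encoded by Spcs1, Spcs2 and Spcs3. Spcs3 stood at 11.18 in both Cxcr5+Bcl6+ arrays, 11.46 and 11.44 in Cxcr5+Bcl6- cells and 11.62 and 11.46 in Cxcr5-Bcl6- cells. Its -0.36 against Cxcr5-Bcl6- cells passed (adjusted p = 0.00863, and 0.0633 without replicate 1 of Cxcr5-Bcl6-). The -0.27 against Cxcr5+Bcl6- cells passed narrowly (0.047) and not without either Cxcr5+Bcl6+ array (0.125 and 0.106) or either Cxcr5+Bcl6- array (0.253 and 0.193), nor after quantile normalisation (0.0879). Spcs1 and Spcs2 overlapped between the groups, with changes of -0.05 and -0.08 against Cxcr5-Bcl6- cells (intervals -0.29 to 0.20 and -0.31 to 0.16).

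**Figure D3:**
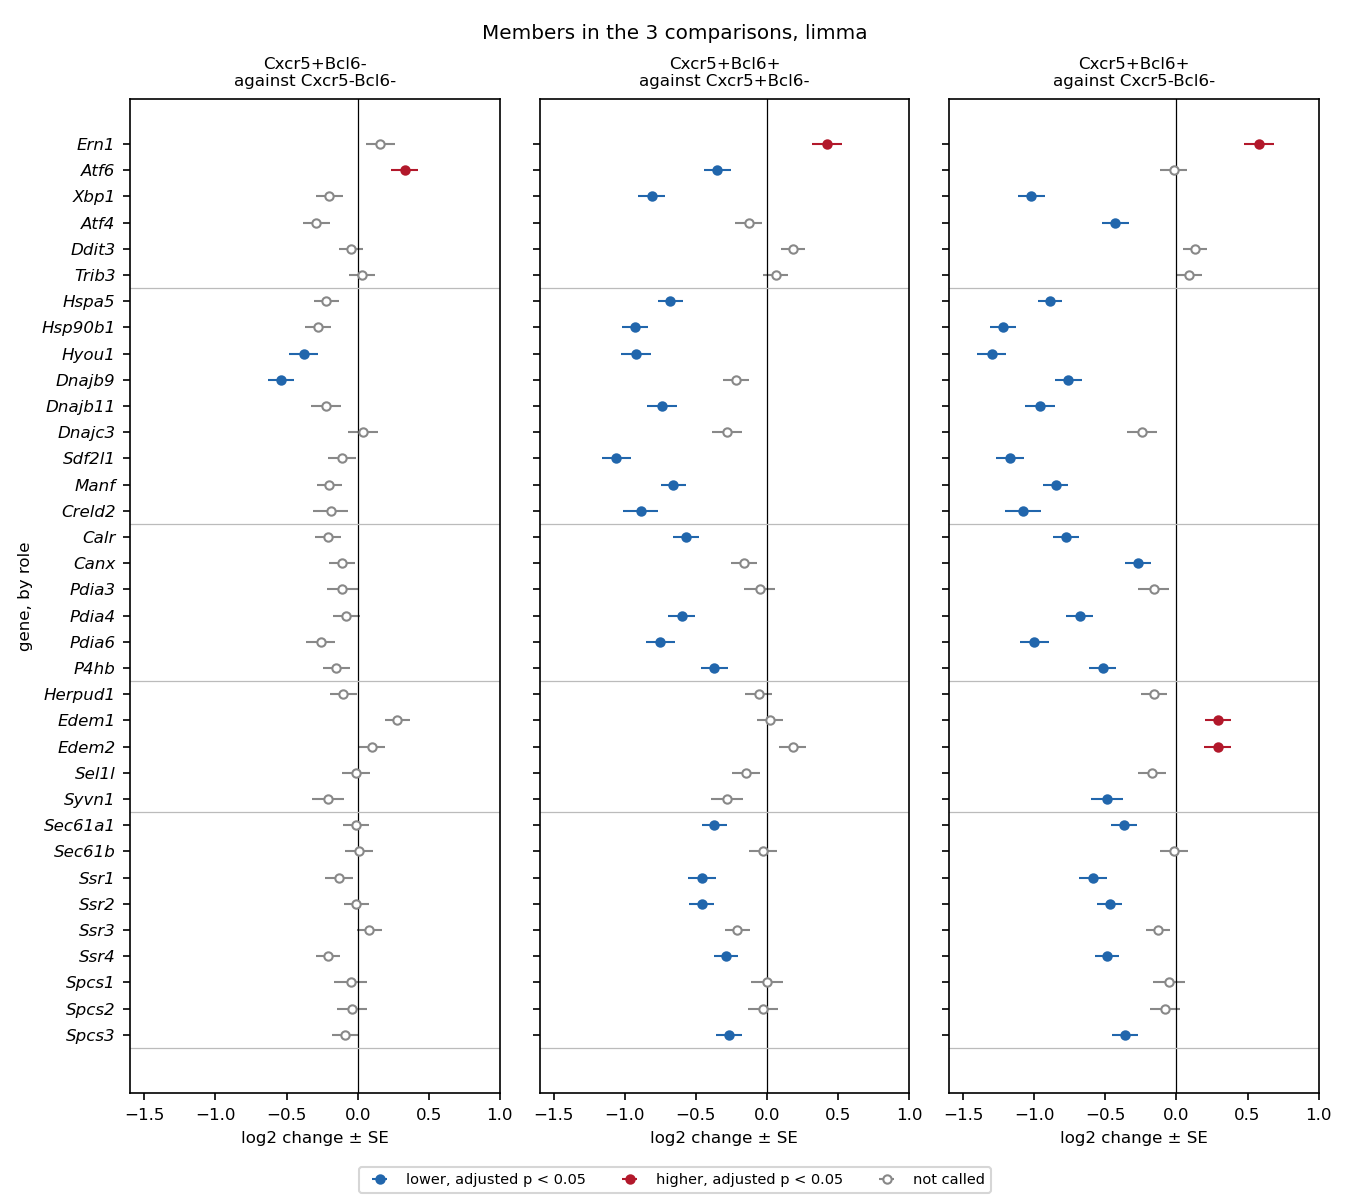
Log2 change with its standard error for each measured member in the 3 comparisons, by limma over 6 arrays, with filled points where the adjusted p was under 0.05. Chaperones and isomerases lie left of 0 in both panels that contain Cxcr5+Bcl6+ cells, and 3 points are filled in the panel of the Bcl6- groups (Atf6, Hyou1 and Dnajb9).

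Set beside the promoters, 7 of the 8 members with the ER stress response element were lower in Cxcr5+Bcl6+ cells than in Cxcr5-Bcl6- cells (median -0.84) and 5 of 8 were lower than in Cxcr5+Bcl6- cells (-0.63). Of the 21 measured members with a promoter and no full element, 9 were lower and 3 higher (median -0.16), and against Cxcr5+Bcl6- cells 7 were lower and 1 higher (-0.13). Of all 15614 measured genes with a promoter window, 2804 were lower and 2608 higher against Cxcr5-Bcl6- cells (median 0.04), and 2093 and 1902 against Cxcr5+Bcl6- cells (0.05). No test was made between these sets, and some members without the element fell as far. Xbp1 (-1.02) had neither CCAAT nor CCACG in its window, and Sdf2l1 (-1.17) and Dnajb11 (-0.96) had both at other distances. Outside the members, 29 genes held the element and 13 of them were measured. Of the 13, 0 were lower by limma (1 at an unadjusted p under 0.05) in Cxcr5+Bcl6+ cells than in Cxcr5-Bcl6- cells. There 2 were higher (Pan2, 0.54, and Olfr59, 0.55). Olfr59 is an olfactory receptor gene, of a class not known to be used by T cells. Of that class 34.7% were called higher there, and 47% against Cxcr5+Bcl6- cells. Whether each of the 13 is expressed in these cells was not tested. Against Cxcr5+Bcl6- cells, 3 of the 13 were higher (Pan2, Olfr59 and Acnat2) and 1 was lower, Derl3, of the degradation machinery (-0.36, adjusted p = 0.0137). It was not called against Cxcr5-Bcl6- cells (0.02), and its call against Cxcr5+Bcl6- cells was lost without replicate 1 of Cxcr5+Bcl6+ (0.0802) or either Cxcr5+Bcl6- array (0.0679 and 0.123).

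Creld2 and Alg12, a mannosyltransferase gene of N-glycan assembly, run away from each other and share the same element, at chr15:88819520-88819538, between start sites 328 bases apart. Creld2 changed by -1.08 against Cxcr5-Bcl6- cells and Alg12 by -0.25 (adjusted p = 0.0813). The Alg12 change passed on centring the arrays (-0.29, adjusted p = 0.046) and with dim probe sets left out (0.0478). The pair was picked after its values were seen, and the difference between the 2 genes was not tested.

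**Figure D4:**
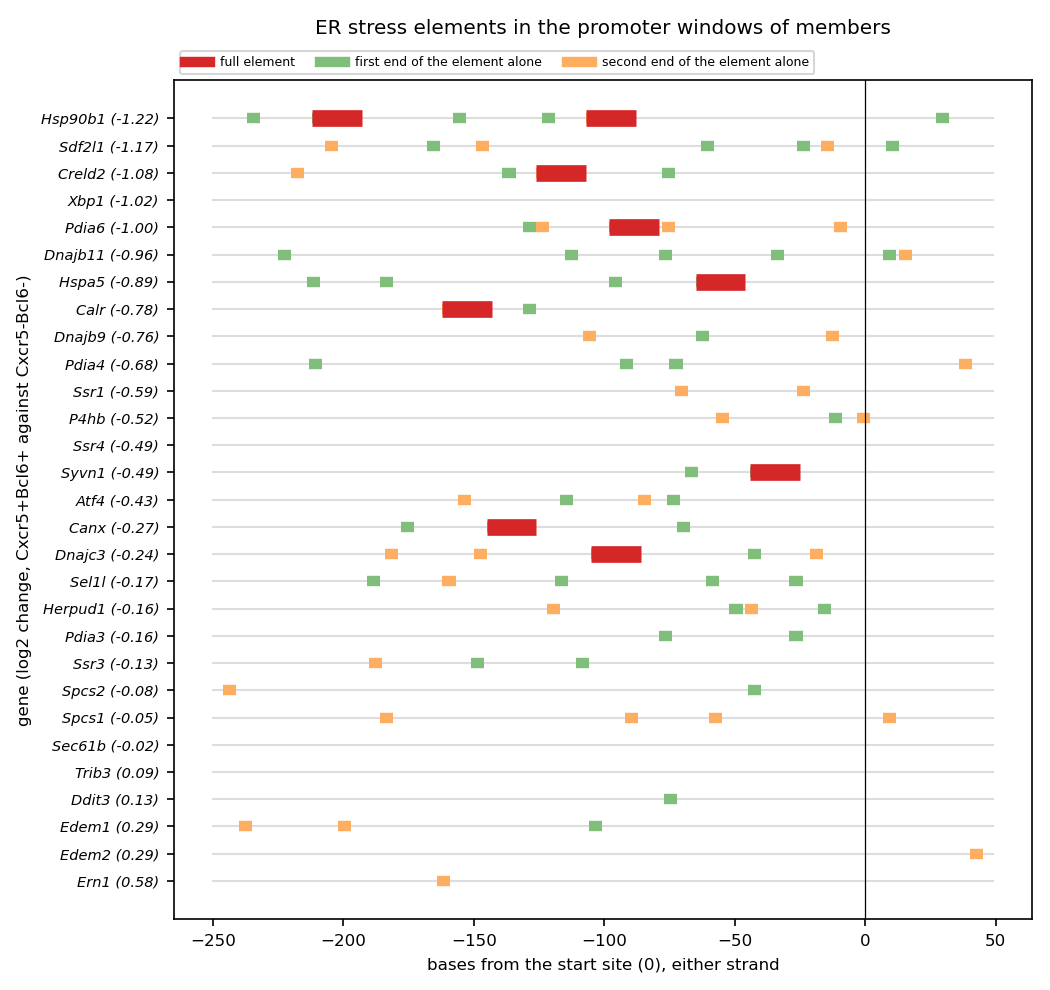
Position of the ER stress response element (red) and of its ends alone (green and orange) in the promoter windows of the members that have both a window and a value, in bases from the start site. Members are ordered by their log2 change from Cxcr5-Bcl6- to Cxcr5+Bcl6+ cells, given in brackets, and 7 of the 8 members with a full element were called lower there, Dnajc3 being the exception.

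Of 115 measured genes in 7 further lists, 56 were lower and 12 higher in Cxcr5+Bcl6+ cells than in Cxcr5-Bcl6- cells (median -0.24), 45 were lower and 5 higher than in Cxcr5+Bcl6- cells (-0.19), and 4 were lower and 3 higher between the Bcl6- groups (-0.03). The 48.7% lower and 10.4% higher against Cxcr5-Bcl6- cells stand beside 17.7% and 16.4% of all genes. Among genes in the members' level range the shares were 31.8% and 21.9%, and each list that follows is read against these shares. Against Cxcr5+Bcl6- cells, 39.1% lower and 4.35% higher stand beside 13.2% and 11.8% of all genes. N-glycosylation, which attaches sugar chains to new proteins, was lower in 12 of 13 genes (median -0.42) and, against Cxcr5+Bcl6- cells, in 8 of 13 (-0.33). Its examples are the oligosaccharyltransferase subunits Rpn1 (-0.81, adjusted p = 3.18e-05) and Ddost (-0.56, 0.000487) and the first enzyme of the glycan carrier, Dpagt1 (-0.51, 0.000649). Targets of ATF4 and the amino acid response were lower in 13 of 19 genes and higher in 2 (median -0.47). Wars, a tryptophanyl-tRNA synthetase that interferon gamma also induces, changed by -1.36 (adjusted p = 4.39e-07), the amino acid transporter Slc7a5 by -1.5 (1.28e-06) and the mitochondrial serine enzyme Shmt2 by -1.12 (1.52e-06). Pck2, a mitochondrial enzyme, was higher by 0.43 (0.00406).

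Folding and redox enzymes outside the members were lower in 9 of 22 genes and higher in 1 (median -0.19). Mogs, which trims the first glucose of the glycan, changed by -1.05 (adjusted p = 1.08e-05), Ero1a, the oxidase that recharges disulfide isomerase, by -0.83 (2.38e-05) and Cnpy4 by 0.58 (0.000913). In targeting and translocation 5 of 14 were lower (35.7%, near the 31.8% of genes in the members' level range) and 1 higher (median -0.23), with the signal recognition particle receptor subunit Srprb at -0.88 (2.62e-05), the translocon helper Sec63 at -0.51 (0.00245) and the catalytic signal peptidase subunit Sec11c at 0.64 (0.000518). The wider degradation list had 3 of 15 lower (20%, near the 17.7% of all genes) and 1 higher (median -0.00). A share near the background is no result about the list; its called genes include the retrotranslocation factor Selenos (-0.85, 2.8e-05), the ubiquitin-conjugating enzyme Ube2g2 (-0.69, 6.69e-05) and the lectin Erlec1 (0.67, 0.000335). Transport from the ER to the Golgi had 10 of 23 lower and 4 higher (median -0.21), with the cargo receptor Lman1 at -0.62 (0.000303) and the coat regulator Arf4 at -0.59 (0.000213).

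The remaining sensors and regulators of translation were lower in 4 of 9 genes and higher in 3 (median -0.20). Ppp1r15a, which encodes the phosphatase subunit that ends the PERK signal, stood 2.38-fold lower in Cxcr5+Bcl6+ cells than in Cxcr5-Bcl6- cells (-1.25, adjusted p = 8.92e-07), and most of that step lay between the Bcl6- groups (-0.86, adjusted p = 8.51e-05). Its -0.39 between the Cxcr5+ groups (0.00723) was lost without either Cxcr5+Bcl6- array (0.0608 and 0.0627). Eif2ak3, which encodes PERK, was higher by 0.50 (adjusted p = 0.00616), though not called without replicate 2 of Cxcr5+Bcl6+ (0.43, adjusted p = 0.065). Mbtps1, the protease that starts the cleavage of ATF6, was higher by 0.42 (0.00362) and Atf6b, a relative of Atf6, was lower (-0.58, 0.000385).

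Between the Bcl6- groups 3.48% of the 115 wider-list genes were lower and 2.61% higher. Both shares lay below the 5.49% and 5.50% of all genes, so these counts are no result about the lists together. Of the 4 lower genes, 3 belonged to the ATF4 list (3 of 19, 15.8%). The cystine transporter Slc7a11 changed by -0.62 (adjusted p = 0.00107), Slc7a5 by -0.47 (0.0177) and Shmt2 by -0.32 (0.0333), the fourth being Ppp1r15a. On all 6 arrays Slc7a11 lay below 7.48, the 95th percentile of the olfactory and related receptor genes described below. Whether Slc7a11 is expressed in these cells was not tested. Without replicate 2 of Cxcr5-Bcl6- or replicate 1 of Cxcr5+Bcl6- the Slc7a5 call was lost (0.0904 and 0.104), and the Shmt2 call was lost without any 1 of the 4 arrays compared (0.0847 to 0.303). The 3 higher were Derl3 (0.38, 0.0196), Sec11c (0.48, 0.0117) and Arfgap3 (0.32, 0.0421). None of these 3 kept its call without replicate 1 of Cxcr5+Bcl6- (0.1, 0.145 and 0.447), and the 7 calls over the wider lists became 2, 3 and 4 without replicate 1 of Cxcr5+Bcl6-, replicate 2 of Cxcr5-Bcl6- and replicate 2 of Cxcr5+Bcl6-. The 50 calls between the Cxcr5+ groups became 22 without replicate 1 of Cxcr5+Bcl6-, and 30 without replicate 2 of Cxcr5+Bcl6- and 30 without replicate 1 of Cxcr5+Bcl6+.

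**Figure D5:**
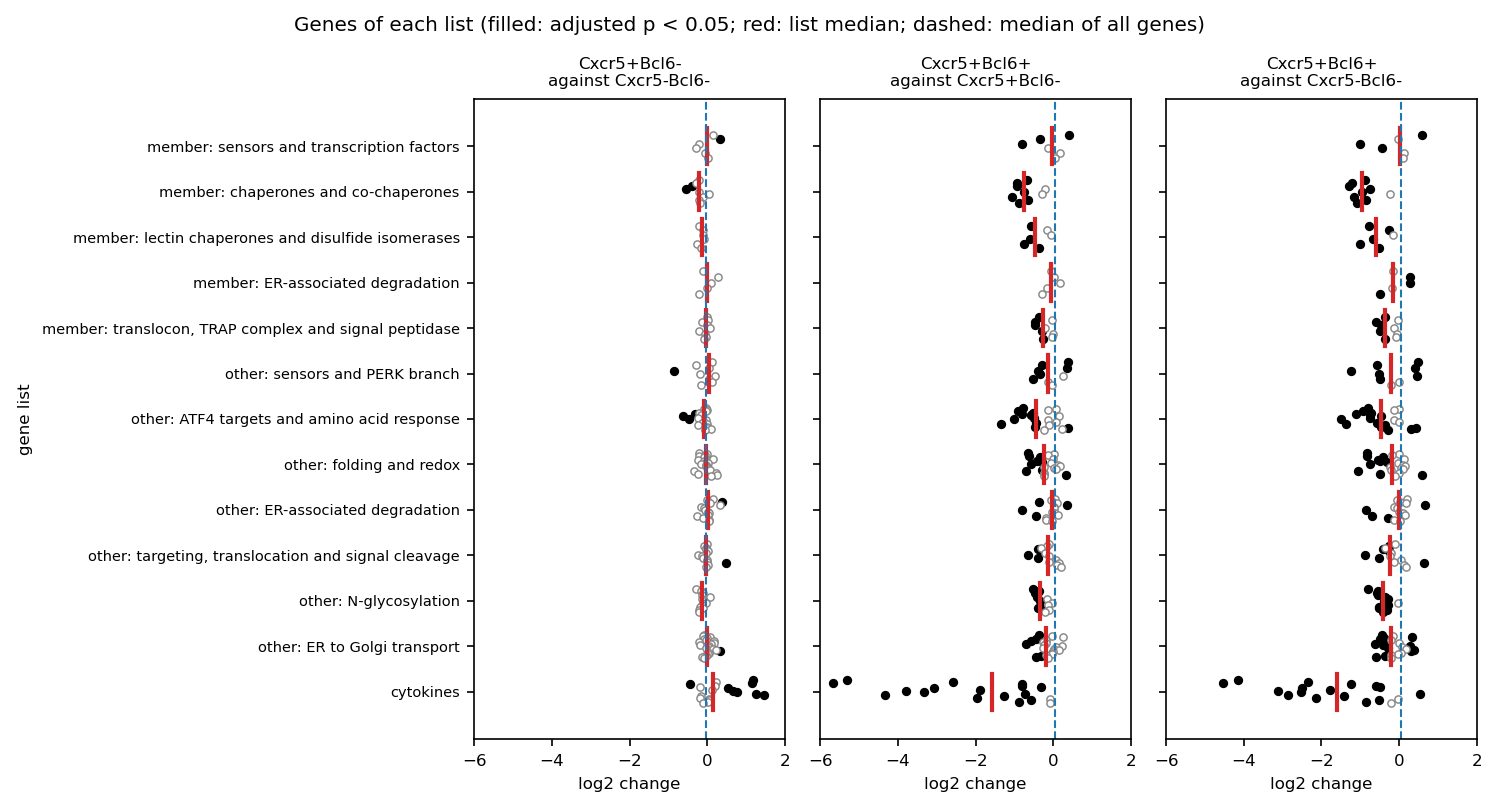
Log2 change of each gene by list in the 3 comparisons, with filled points where the adjusted p was under 0.05, a red bar at the list median and a dashed line at the median of all genes. The cytokine points spread furthest to the left in both panels with Cxcr5+Bcl6+ cells, and the chaperone medians of -0.74 and -0.96 lie left of the other member lists.

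The cytokines, cargo of this pathway, had larger median changes than its machinery, a difference that was not tested. Of 18 measured cytokine genes, 15 were lower and 1 higher in Cxcr5+Bcl6+ cells than in Cxcr5-Bcl6- cells (median -1.59). Against Cxcr5+Bcl6- cells 16 were lower and 0 higher (-1.57, with 0 higher also at an unadjusted p under 0.05). Of all genes, 17.7% were lower and 16.4% higher in the first comparison, and 13.2% and 11.8% in the second. Ifng stood at 7.50 on both Cxcr5+Bcl6+ arrays against 12.80 and 12.82 in Cxcr5+Bcl6- cells and 11.60 and 11.67 in Cxcr5-Bcl6- cells. Its changes were -5.31 and -4.14 (adjusted p = 2.23e-11 and 2.5e-10). The 7.50 lies near 7.48, the 95th percentile of the olfactory and related receptor genes described below, so background may bound these changes. In Cxcr5+Bcl6+ cells, Il3 (5.31 and 5.44), Il5 (7.02 and 7.16) and Il9 (7.22 and 6.97) lay below that percentile. So did Csf2 (7.18 and 7.32) and replicate 1 of Il10 (7.40) in these cells. Il9 in Cxcr5+Bcl6- cells (7.38 and 7.41) and Il6 on all 6 arrays (4.33 to 4.77) also lay below it. Background may bound the changes of these genes too. Between the Bcl6- groups 7 of the 18 cytokines were higher (38.9%, beside 5.50% of all genes) and 1 was lower in Cxcr5+Bcl6- cells (median 0.15), with Ifng up by 1.17 (adjusted p = 9.26e-06), while Xbp1, Hspa5 and Sdf2l1 changed by -0.20, -0.22 and -0.11 and were not called; Hspa5 passed with an intensity trend (adjusted p = 0.0142). The cytokines and the members were not tested against each other. Il21, the cytokine of follicular helper cells, stood at 10.12 and 10.16 in Cxcr5+Bcl6+ cells, 10.94 and 10.79 in Cxcr5+Bcl6- cells and 9.80 and 9.40 in Cxcr5-Bcl6- cells. It was the 1 cytokine that was higher in Cxcr5+Bcl6+ cells than in Cxcr5-Bcl6- cells (0.54, adjusted p = 0.00479). Whether the cells were restimulated, which changes cytokine messenger, was not stated.

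Of 4 regulators tied to Xbp1 and to secretory differentiation, 3 were lower in Cxcr5+Bcl6+ cells in both comparisons. Of all genes, 17.7% were lower against Cxcr5-Bcl6- cells and 13.2% against Cxcr5+Bcl6- cells. Prdm1, which encodes Blimp-1, the factor that raises Xbp1 in plasma cells and is repressed by Bcl6, stood at 7.80 and 7.51 in Cxcr5+Bcl6+ cells, 10.03 and 9.94 in Cxcr5+Bcl6- cells and 9.77 and 9.78 in Cxcr5-Bcl6- cells. Its changes were -2.12 and -2.33 (adjusted p = 5.41e-08 and 6.07e-08), with 0.21 between the Bcl6- groups (0.293). The 7.80 and 7.51 lie near 7.48, the 95th percentile of the olfactory and related receptor genes described below. Background may therefore bound the changes of Prdm1. Irf4, a factor that scales with antigen receptor signal, fell by 1.55 and 1.03 on the log2 scale (1.22e-07 and 5.3e-06) and Bach2, a repressor of Prdm1, by 1.2 and 0.59 (5.65e-06 and 0.00213). Bcl6 itself, which defined the sort, was higher by 1.19 and 0.94.

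Markers of other cells moved with the groups. Markers of plasmacytoid dendritic cells, which also have a rich ER, were lower in 8 of 8 genes in each Cxcr5+ group, both set against Cxcr5-Bcl6- cells. Of all genes, 17.7% were lower and 16.4% higher in Cxcr5+Bcl6+ cells, and 5.49% and 5.50% in Cxcr5+Bcl6- cells. The mean of their log2 levels ran from 7.99 to 8.11 in Cxcr5+Bcl6+, from 8.65 to 8.67 in Cxcr5+Bcl6- and from 9.99 to 10.03 in Cxcr5-Bcl6- arrays, and Siglech gave -2.88, -2.27 and, between the Cxcr5+ groups, -0.61. Myeloid and conventional dendritic cell markers gave 8 of 16 lower and 2 higher, with means of 7.44 to 7.49, 7.63 to 7.64 and 8.40 to 8.45 in the same order. Between the Cxcr5+ groups, 6 of 8 plasmacytoid markers were lower and 1 higher (median -0.66), and 5 of 16 myeloid markers were lower and 2 higher (median 0.10). Of all genes, 13.2% were lower and 11.8% higher there. B cell markers ran the other way (7 of 11 higher and 3 lower, means 8.17 to 8.23, 7.81 to 7.86 and 7.42 to 7.47).

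Markers of plasma cells, the usual source of this program in a lymph node, include Derl3 and Fkbp11 of the wider lists. In Cxcr5+Bcl6+ against Cxcr5-Bcl6- cells 1 of 8 was lower, the immunoglobulin joining chain gene Jchain (-1.08). That is 12.5%, where 17.7% of all genes were lower and 16.4% higher. Between the Cxcr5+ groups 2 of 8 were lower (25%, beside 13.2% of all genes). Between the Bcl6- groups 2 were lower (25%) and 1 higher (12.5%), beside 5.49% and 5.50%. The list means were 7.85 in Cxcr5+Bcl6+, 7.87 to 7.88 in Cxcr5+Bcl6- and 7.93 to 8.02 in Cxcr5-Bcl6- arrays. Jchain stood at 6.78 and 7.11, 7.69 and 7.48, and 8.15 and 7.90 in the same order. Its Cxcr5+Bcl6+ levels lay below 7.48, the 95th percentile of the receptor genes described below. The T cell core list had a mean of 12.35 to 12.54 on the 6 arrays, with 4 of 10 genes higher and 2 lower in Cxcr5+Bcl6+ cells than in Cxcr5-Bcl6- cells, from -0.33 (Cd2) to 0.79 (Cd4). The part of these other cells in the members' changes was not tested. For scale, 1207 olfactory, vomeronasal and trace-amine receptor genes, not known to be used by T cells, had a median level of 5.78 and a 95th percentile of 7.48, and the members' mean levels ran from 8.06 (Trib3) to 13.02 (Canx). The receptor genes' median change was 0.22 against Cxcr5-Bcl6- cells and 0.30 against Cxcr5+Bcl6- cells, and 419 and 567 of the 1207 were called higher. Genes in the members' level range had a median change of -0.05 in both comparisons. The part of such a drift with level in the members' changes was not tested. Trib3 and Ddit3, the members with the lowest mean levels, changed by 0.09 and 0.13 against Cxcr5-Bcl6- cells, less than the receptor genes' median.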

How the data were processed

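Whole-transcript Affymetrix arrays were hybridised with biotin-labelled total RNA. The deposited values are log2 probe-set levels, normalised across arrays by the authors; GCOS 1.1, RMA and the Affymetrix Expression Console are listed, with no order or settings, in the submitters' processing notes, and the log2 scale was read from the values. The sources used here give no genome build and no detection calls. Of 35556 rows, 23410 carried a gene symbol. These were fitted with limma 3.58.1 under R 4.3.3 (lmFit with group means over 6 arrays, eBayes, two-sided, Benjamini-Hochberg over the 23410, threshold 0.05), a fit also tested on simulated data. Residual degrees of freedom were 3, with 8.25 from the prior. The number of arrays limits the precision. Genes are represented by the probe set with the highest mean. Fold values are 2 to the power of the log2 change. All members could be named; each wider list gave up to 3 rises and 3 falls per comparison with the smallest adjusted p, and the cytokines, regulators, markers and genes with the promoter element are given by list first. Members and lists were chosen with earlier results of these data known. A total of 11 alternatives were tried, among them leaving out each array.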

Additional observations from a re-analysis of the deposited data

How the results depend on the processing

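Called members kept their call under every alternative in 19 of 24 cases for Cxcr5+Bcl6+ against Cxcr5-Bcl6- cells, 12 of 19 between the Cxcr5+ groups and 1 of 3 between the Bcl6- groups, and no result changed direction. Over the members' 3 comparisons, 1595 values kept their side of the threshold, 64 lost it and 21 gained it. After renewed quantile normalisation the median member change was -0.31 against Cxcr5-Bcl6- cells and -0.20 against Cxcr5+Bcl6- cells, and centring the arrays gave -0.35 for the latter. Between the Bcl6- groups, members called numbered 6 with an intensity trend, 6 with dim probe sets below the median left out and 1 over all rows. Wider-list genes called there numbered 12, 11 and 2 under the same settings, and probe sets called 1579 over all rows instead of 2610. More rows to adjust over make each adjusted p larger; the cause of the other shifts was not tested. Leaving out 1 array gave medians of -0.44 to -0.35 against Cxcr5-Bcl6- cells and -0.18 to -0.05 between the Bcl6- groups. Between the Bcl6- groups it gave 1 to 3 members, 2 to 7 wider-list genes and 1317 to 2624 probe sets called, and between the Cxcr5+ groups 12 to 20, 22 to 52 and 3617 to 6987. Such fits assume that the lone array of a group varies like the other groups. Whether replicate numbers pair the arrays is not known. Deviations of arrays with the same number correlated at -0.2336, -0.04605 and 0.2578 between groups. With 2 arrays a group these values cannot decide it. With the replicate block, 7942, 2411 and 5862 probe sets were called instead of 8255, 2610 and 6185, and members called were 24, 2 and 18. Background correction was not varied, and signal over background is known only from the receptor genes.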
